A study of Mus musculus with 18 samples.

Results

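The genes described here are 6 receptors of natural killer (NK) cells, Klrc1, Klrc2, Klrd1, Klrk1, Klrb1c and Ncr1, out of 20275 genes in the mRNA count matrix of mouse bone marrow (BM). They were taken by name and followed across the deposited cluster codes of the hematopoietic cells in each library. All 6 were in the matrix and had unique molecular identifiers (UMIs, which count captured transcripts) in at least 4 of the 5 hematopoietic progenitor (HP) libraries inside the clusters described below. The HP libraries held 20982 cells in 65 cluster codes, which gave 88 combinations of code and library.

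The study profiled BM of C57B6/J mice by CITE-Seq, which reads mRNA and antibody tags from the same cell. HPs were sorted as Lineage-Kit+ cells at embryonic day (E) 16.5, at E18.5, at postnatal day (P) 0 and in the adult, and CD45-Ter119- stroma was sorted at the same stages. There were 2 HP libraries at E16.5 (4752 cells in replicate 2 and 560 in replicate 1) and 1 each at E18.5 (3477 cells), P0 (6208 cells) and adult (5985 cells), all from untreated mice with no transgene named in the labels. Each library pooled cells of several mice, so differences between mice cannot be seen, and the sort selected Kit+ cells, so the NK cells described are those that passed a Lineage-Kit+ gate and not all NK cells of the marrow. In the study's flow cytometry, Lineage- cells were low for Ter119, Gr-1, B220, CD8 and CD4. The antibodies listed in the study's reporting summary include none to NK1.1, the product of Klrb1c. The lineage antibodies of the sort for sequencing are not given separately in the sources used here.

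NK cells are innate lymphocytes that kill infected, stressed or transformed cells without an antigen receptor rearranged for the purpose. They weigh inhibitory against activating receptors, many of which are C-type lectin-like proteins encoded side by side in the NK gene complex. Klrd1 encodes CD94, the chain that pairs with either NKG2A (Klrc1), which is inhibitory, or NKG2C (Klrc2), which is activating, and both pairs read the nonclassical MHC molecule Qa-1 (H2-T23). Klrk1 encodes NKG2D, which recognizes stress-induced ligands such as Rae-1, H60 and Mult1 (Ulbp1) and signals through the adaptors Hcst (DAP10) and Tyrobp (DAP12). Klrb1c encodes NK1.1, the antigen by which NK cells of C57BL/6 mice are usually sorted, and Ncr1 encodes NKp46, an immunoglobulin-like receptor of NK cells and some innate lymphoid cells (ILCs).

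On the GRCm38 assembly, 5 of the 6 genes lie on chromosome 6, within 900 kb, and Ncr1 lies on chromosome 7. Klrb1c spans chr6:128778485-128789215 on the minus strand, Klrd1 spans chr6:129591782-129598775 on the plus strand, and Klrk1 spans chr6:129610323-129623864 on the minus strand. Klrc2 (chr6:129647496-129660689) and Klrc1 (chr6:129666015-129678973) follow on the minus strand, and Ncr1 spans chr7:4337724-4345164 on the plus strand. All 6 are protein coding. The 250 bases before RefSeq transcript starts (GRCm38.p6) were available for 5 of the 6 genes, in 7 windows. Those of Klrc1 and Klrk1 and the Ncr1 window printed end at the edge of the gene span given above, whereas those of Klrb1c (chr6:128788642-128788891) and Klrc2 (chr6:129660597-129660846 and chr6:129660557-129660806) lie wholly or partly inside it. They are shown because the 5 genes were detected together in the cells described below. Capitals mark the letters TGTGGT, the core of Runx binding sites, or their reverse complement ACCACA. Runx factors are transcription factors of lymphoid cells, among other cell types.

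Klrc1, chr6:129678974-129679223, minus strand: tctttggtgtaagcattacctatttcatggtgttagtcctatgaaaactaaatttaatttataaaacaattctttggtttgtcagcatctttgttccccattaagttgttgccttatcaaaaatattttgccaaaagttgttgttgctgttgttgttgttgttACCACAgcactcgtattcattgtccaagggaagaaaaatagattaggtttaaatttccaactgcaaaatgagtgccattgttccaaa

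Klrk1, chr6:129623865-129624114, minus strand: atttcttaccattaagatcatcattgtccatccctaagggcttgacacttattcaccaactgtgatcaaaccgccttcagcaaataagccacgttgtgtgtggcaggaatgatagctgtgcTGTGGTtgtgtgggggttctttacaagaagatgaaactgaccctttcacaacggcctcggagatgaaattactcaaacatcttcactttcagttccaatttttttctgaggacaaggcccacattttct

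Ncr1, chr7:4337474-4337723, plus strand: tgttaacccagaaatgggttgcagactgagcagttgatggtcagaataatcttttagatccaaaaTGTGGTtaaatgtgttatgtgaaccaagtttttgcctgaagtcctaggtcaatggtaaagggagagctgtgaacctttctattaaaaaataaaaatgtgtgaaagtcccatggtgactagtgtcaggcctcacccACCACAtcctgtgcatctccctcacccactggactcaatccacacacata

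Klrc2, chr6:129660615-129660644, minus strand, a stretch of the window: ttcaatagaatcACCACAgcatagaacaca

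Klrb1c, chr6:128788713-128788742, minus strand, a stretch of the window: aggaaggaaagcTGTGGTcatggtgttttg

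The Runx letters were found on either strand in all 7 windows of the 5 genes, against 14.0% of 32851 RefSeq windows of the same length. The windows of Klrc2 overlap each other, as do those of Ncr1, so the same sites are counted more than once. In the window of Klrc1 they lie 87 bases before the RefSeq start, in that of Klrk1 129 bases, in that of Klrb1c 89 bases, and the Ncr1 window shown holds a copy at 185 and another at 50 bases. The T-box core AGGTGT (11.8% of all windows) was in none of the 7, and the Ets core GGAAGT (19.7%) was in that of Klrb1c only. These are matches of letters in these windows, and binding was not measured. At the other end of the genes, where 3′ libraries read, 57.5% of the 50-base words in the last 400 bases of Klrc1 transcripts also occur in Klrc2 or Klrc3, 15.1% of those of Klrc2 occur in Klrc1 or Klrc3, and 15.4% of those of Klrb1c occur in its relatives Klrb1a, Klrb1b and Klrb1-ps1 or in the overlapping Gm44511. Reads from such words could be lost or misplaced in the levels of Klrc1, Klrc2 and Klrb1c, by an amount that was not measured. Klrd1, Klrk1 and Ncr1 share no such word with another gene.

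The HP libraries held 13974733 to 127489333 UMIs, with a median of 6747 (adult) to 23291.5 (E16.5 replicate 1) per cell. Cell barcodes recur between libraries: 334 of the 560 cells of E16.5 replicate 1, 76 of 4752 of replicate 2, 425 of 3477 for E18.5, 314 of 6208 for P0 and 788 of 5985 for the adult had a barcode that another mRNA library also held. In the pair with the most shared barcodes among those of E16.5 replicate 1, with the adult (330 barcodes), the median was 30840 UMIs in the former and 668 in the latter. The source of the shared barcodes was not tested, and levels that moved beyond their counting interval without those cells are given both ways. T cells made up 45.1% of E16.5 replicate 2 by their cluster codes (TCell1 to TCell6), against 3.21% of replicate 1 and 1.10% to 1.87% of the later libraries.

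NK receptor transcripts were concentrated in a small set of lymphoid clusters, TCell5 at the perinatal stages and T/NK in the adult. These held 13 and 186 cells in the E16.5 replicates, 65 for E18.5, 68 for P0 and 109 for the adult, 441 cells in all. In E16.5 replicate 1 the 13 cells were led by T cell and ILC genes (Tcrg-C4, Gata3, Bcl11b), and Ccl5, Arg1, Cxcr6, Icos and Rora were also among the 10 leading genes. In the others, several genes of cytotoxic lymphocytes stood beside genes of T cells and ILCs among the 10 leading genes. These were Xcl1, Ccl5 and Klrd1 beside Icos, Rora, Arg1 and Cxcr6 in E16.5 replicate 2, and Gzma, Ccl5, Xcl1 and Il2rb beside Cd3d and Cd3g at E18.5, where Klrd1 was again among them, and at P0, where Trbc1 and Bcl11b were too. In adult T/NK they were Gzma, Ccl5, Klre1, Klra4, Klra7 and Ncr1 beside Tcf7 and Trbc1. Kit transcripts were present at 94.2 to 174 CPM (UMIs per 1000000 UMIs of the same cells). T cell genes were present as well, with Trbc1 at 386 to 1320 CPM and Cd3e at 36.2 to 111 CPM, so these codes mix cells with T and NK transcripts, as the adult code's name says and the perinatal one's does not.

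For the 6 genes together, the clusters TCell5 and T/NK reached 405 CPM in E16.5 replicate 1, 448 in replicate 2, 718 for E18.5, 391 for P0 and 1230 for the adult. The remaining T cell clusters of E16.5 replicate 2 (TCell1 to TCell4 and TCell6, 1955 cells) held 17 UMIs of the 6 genes among 46416403, or 0.366 CPM, 13 of them Klrd1. Klrc1 and Ncr1 had 0 UMIs there, which allows levels of up to 0.0646 CPM. The 14 effector genes of cytotoxic lymphocytes summed to 1979 CPM in the same cells and to 1925 CPM in TCell5. Such sums can rest on few genes, so they do not show that these clusters shared an effector program. Without the cells that share a barcode, the 6 genes reached 166 CPM in E16.5 replicate 1 and 778 CPM at E18.5, and in the other 3 libraries the value moved by less than its counting interval. In replicate 1 these cells carried most of the signal: without them Klrd1 fell from 355 to 140 CPM, Klrc2 from 25.3 to 8.76 CPM and Klrk1 to 0 UMIs. Klrc1 was then at 8.76 CPM and Ncr1 at 8.76 CPM, each from 1 UMI.

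**Figure D1:**
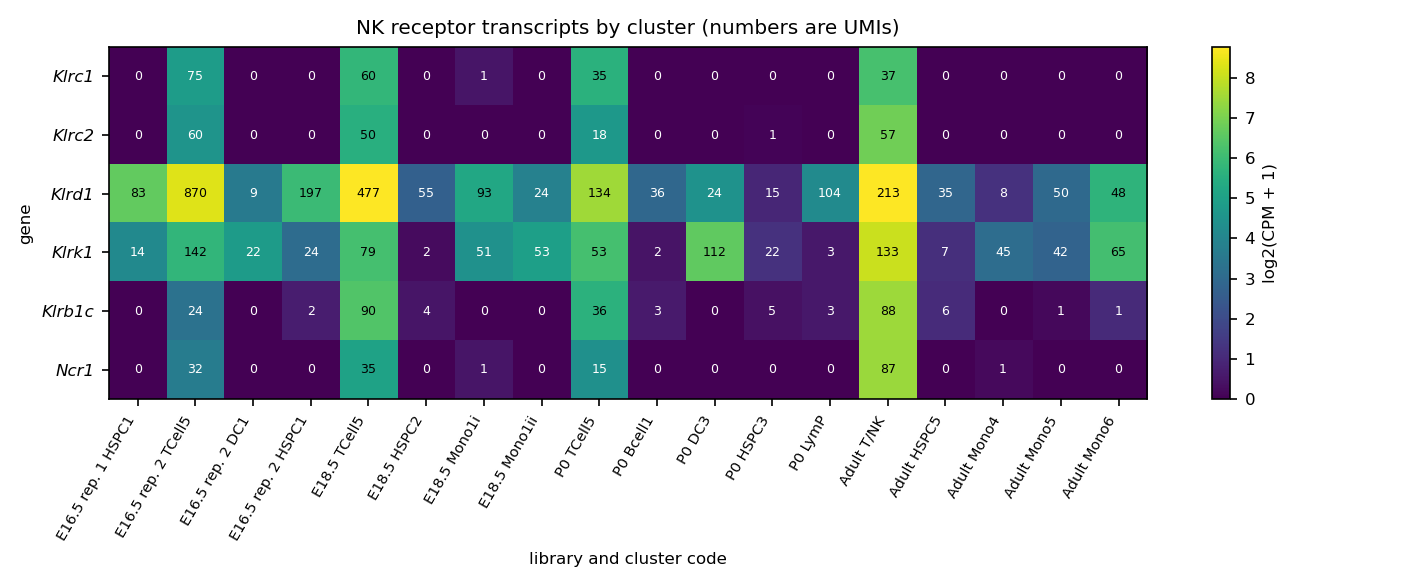
NK receptor transcripts in 18 clusters with at least 30 cells and at least 20 UMIs of any of the 6 genes (columns, by library), one gene per row. Colour is log2(CPM + 1) of summed counts and the number is the UMI count; among the clusters shown, Klrc1, Klrc2 and Ncr1 have more than 1 UMI only in TCell5 and T/NK, while Klrd1 and Klrk1 also have counts in progenitor, dendritic and monocyte clusters.

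The genes differed in how far they were limited to these clusters. Klrc1 had 83.3% (P0) to 100% (E16.5 replicate 1, 5 UMIs) of its HP UMIs in TCell5 or T/NK, Klrc2 had 85.7% to 100% and Ncr1 93.8% to 100%. Klrd1 had 39.1% at P0, 53.0% in E16.5 replicate 1, 56.3% in the adult, 70.3% at E18.5 and 77.4% in E16.5 replicate 2. Klrk1 had 5.0% in E16.5 replicate 1 (1 of 20 UMIs), 23% at P0, 39.3% at E18.5, 42.4% in the adult and 65.1% in E16.5 replicate 2. Klrb1c was intermediate, from 36 of 60 UMIs at P0 to 90.0% at E18.5, with 0 of 2 UMIs in E16.5 replicate 1. Without cells that share a barcode, the share in E16.5 replicate 1 was 48.5% for Klrd1 and 0 for Klrk1.

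Detection was compared at equal depth, since the median cell of these clusters had 3647 UMIs in the adult and 9059 to 21432 at the perinatal stages. After thinning each cell to 1000 UMIs, a UMI of any of the 6 genes was left in 23.1% of 13 cells (E16.5 replicate 1), 19.4% of 186 (replicate 2), 41.5% of 65 (E18.5), 22.1% of 68 (P0) and, in adult T/NK, 55.6% of 108, where 1 shallower cell was left out. The exact 95% interval of the adult share, 45.7% to 65.1%, lies above those of E16.5 replicate 2 (13.9% to 25.8%) and P0 (12.9% to 33.8%) and overlaps those of E18.5 (29.4% to 54.4%) and E16.5 replicate 1 (5.04% to 53.8%). All intervals cover counting error only. In all cluster codes outside the T and NK codes, the thinned share was 0.476% to 0.978%, and in the other T cell clusters of E16.5 replicate 2 it was 0 of 1955 cells. Before thinning, the shares were 38.5%, 34.4%, 50.8%, 32.4% and 67.9% in the order above, and 4.06% to 4.87% outside the T and NK codes. Without cells that share a barcode, the thinned share was 1 of 7 cells in E16.5 replicate 1, 19.1% in replicate 2, 42.9% for E18.5, 22.4% for P0 and 54.7% for the adult.

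The CD94/NKG2 receptors come first. Klrd1 was at 355 and 324 CPM in TCell5 of the E16.5 replicates (98 and 870 UMIs), 433 CPM for E18.5 (477 UMIs), 180 CPM for P0 (134 UMIs) and 426 CPM for the adult T/NK cluster (213 UMIs). The P0 level was the lowest with all cells, and its counting interval (151 to 213 CPM) lies below those of the other 4 libraries, which overlap in part. Without cells that share a barcode, E16.5 replicate 1 was at 140 CPM, below P0 at 189 CPM, so the low end of the order depends on those cells. Single cells carried up to 67 Klrd1 UMIs. Of the 98 UMIs of E16.5 replicate 1, found in 5 cells, 54 were in 1 cell. Counting intervals treat UMIs as independent and do not cover such spread between cells, here and for the genes that follow.

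Klrc1, the inhibitory partner, was at 18.1 CPM (5 UMIs) and 27.9 CPM (75) at E16.5, 54.5 CPM (60) at E18.5, 47.1 CPM (35) at P0 and 74.0 CPM (37) in the adult. The intervals overlap among E18.5 (41.6 to 70.1), P0 (32.8 to 65.5) and the adult (52.1 to 102), and the adult and E18.5 intervals lie above that of E16.5 replicate 2 (22.0 to 35.0). Klrc2, the activating partner, was at 25.3 CPM (7 UMIs) and 22.3 CPM (60) at E16.5, 45.4 CPM (50) at E18.5, 24.2 CPM (18) at P0 and 114 CPM (57) in the adult, whose interval (86.3 to 148) lies above all others.

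The other 3 receptors pair with no NKG2A or NKG2C chain. Klrk1 had 1 UMI (3.62 CPM) in E16.5 replicate 1 and was at 52.9 CPM (142 UMIs) in replicate 2, 71.7 CPM (79) at E18.5, 71.3 CPM (53) at P0 and 266 CPM (133) in the adult. Klrb1c had 0 UMIs in E16.5 replicate 1, which allows up to 10.9 CPM, and was at 8.94 CPM (24) in replicate 2, 81.7 CPM (90) at E18.5, 48.4 CPM (36) at P0 and 176 CPM (88) in the adult. Ncr1 had 1 UMI (3.62 CPM) in E16.5 replicate 1 and was at 11.9 CPM (32) in replicate 2, 31.8 CPM (35) at E18.5, 20.2 CPM (15) at P0 and 174 CPM (87) in the adult. For all 3 genes the adult interval lies above those of the other libraries, while the Klrk1 interval of E16.5 replicate 2 (44.5 to 62.3) overlaps those of E18.5 and P0. For Klrb1c the E18.5 and P0 intervals, which overlap slightly with each other, lie above those of E16.5.

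**Figure D2:**
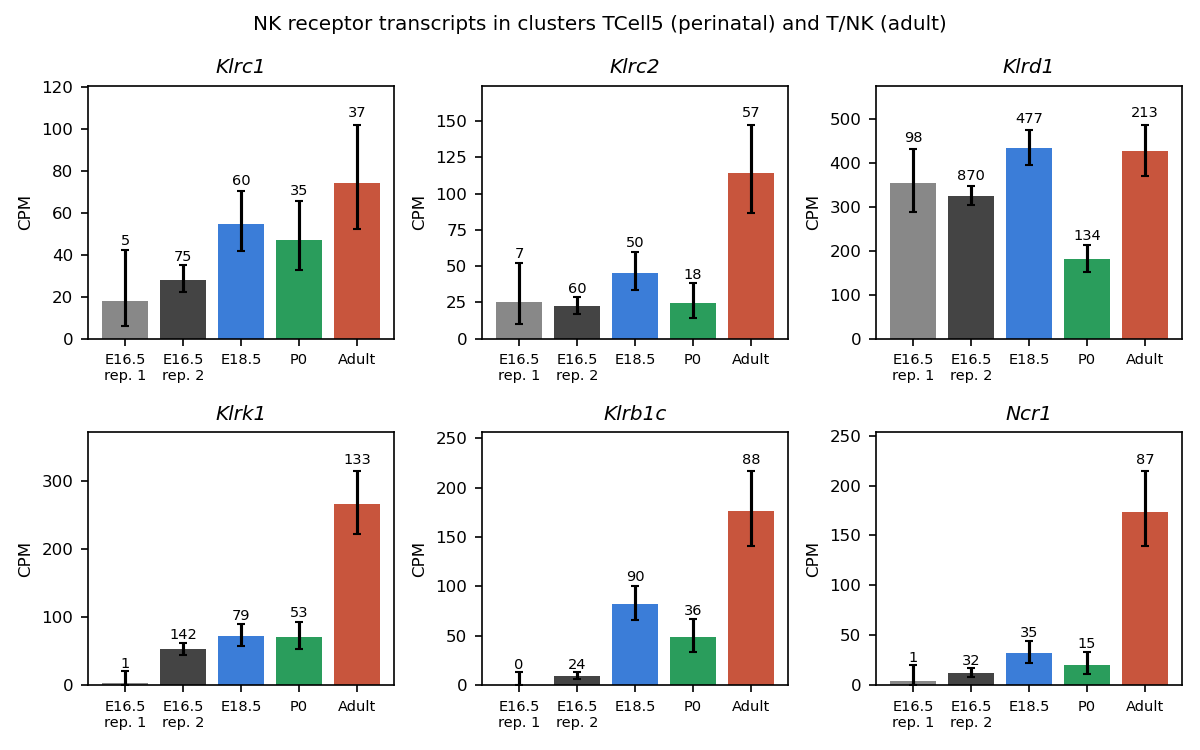
Level of each gene in CPM (linear axis from 0) in cluster TCell5 of the 4 perinatal libraries and cluster T/NK of the adult library. Bars are summed counts over 13, 186, 65, 68 and 109 cells, numbers are UMIs, and error bars are exact Poisson 95% intervals; the adult bar is the highest for all genes but Klrd1, where the intervals of E18.5 (433 CPM) and adult (426 CPM) overlap.

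Stages were then compared with E16.5, the stage with 2 libraries, by edgeR's quasi-likelihood test on summed counts with Benjamini-Hochberg adjustment. Because each later stage had 1 library, the spread is estimated from the E16.5 pair alone, with 1 residual degree of freedom. The study's reporting summary states that its single-cell sequencing was not repeated. The E16.5 pair also differed in antibody counts: the median CD48 count over all cells was 77 in replicate 1 and 7 in replicate 2. CD90.2 had counts in replicate 2 only. Over all HP cells, none of the 6 genes passed an adjusted p of 0.05 at any stage. The test called 0.00621% of 16114 genes for E18.5, 0.292% for P0 and 2.35% for the adult, and 1047, 1368 and 2462 genes had an unadjusted p under 0.05. DESeq2 called 361, 561 and 1164 genes (2.68%, 3.74% and 7.96% of those tested), of which Klrd1 at P0 was the only 1 of the 6 (log2 fold change of -2.25, adjusted p = 0.019), while edgeR gave it -2.21 (SE 0.61, adjusted p = 0.29). Klrb1c in the adult had the largest fitted difference of the 6, 3.04 on the log2 scale (SE 0.94, adjusted p = 0.186). In these sums fewer NK cells and less RNA per NK cell cannot be told apart.

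Summed over all T and NK codes, 5 of the 6 genes were higher at E18.5 than at E16.5, 4 at P0 and 6 in the adult, against 1%, 0.804% and 2.26% of 8584 genes called higher. DESeq2 called 3 of the 6 there at E18.5 and in the adult (Klrk1, Klrb1c and Ncr1) and 2 at P0 (Klrk1 and Klrb1c), against 0.203%, 0.593% and 0.0919% of genes called higher by DESeq2 in the order E18.5, adult and P0. The E16.5 pair differed in make-up, since TCell5 held 13 of the 18 T and NK cells of replicate 1 but 186 of 2141 in replicate 2, where the rest were of T cell clusters that barely hold these transcripts, so the comparison was repeated within TCell5 and T/NK alone, an alternative chosen after the data were seen. In that comparison Klrb1c was the only 1 of the 6 called at E18.5, where 0.481% of 8525 genes were called higher, with a log2 fold change of 3.46 (SE 0.57, adjusted p = 9.2e-07). It was again the only 1 called at P0 (0.633% called higher), with a log2 fold change of 2.66 (SE 0.61, adjusted p = 0.0031).

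In the adult, 5 of the 6 genes were higher than at E16.5 within these clusters, where 3.07% of genes were called higher. The log2 fold changes were 4.78 for Klrb1c (SE 0.57, adjusted p = 2.0e-14), 4.29 for Ncr1 (SE 0.53, adjusted p = 2.1e-13) and 3.07 for Klrk1 (SE 0.51, adjusted p = 3.2e-07). Klrc2 followed at 2.54 (SE 0.51, adjusted p = 6.1e-05) and Klrc1 at 1.79 (SE 0.53, adjusted p = 0.022). Klrd1, the shared chain, differed by 0.59 (SE 0.56, adjusted p = 0.68) and was not called. The median over the 6 genes was 2.80, beside -0.03 over all genes tested. Cells with at least 4 of the 6 genes detected were 18 of 186 in E16.5 replicate 2 and 39 of 109 in the adult. More such cells in a cluster and more RNA per cell cannot be told apart in these sums, at any stage.

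These calls depend on the tool and on the E16.5 pair. DESeq2 kept only Ncr1 in the adult (adjusted p = 0.0024) and called 2, 2 and 73 genes in all, with 0.00655%, 0.0131% and 0.793% of genes called higher. Without cells that share a barcode, Klrc1 in the adult was no longer called (1.77, adjusted p = 0.094) and the other 6 calls held. Without E16.5 replicate 1 (13 cells), the fitted adult log2 fold changes of the 5 called genes were 1.48 (Klrc1) to 4.36 (Klrb1c), and without replicate 2 those of Klrk1 and Ncr1 became 6.38 and 5.77, while Klrb1c, at 0 UMIs in the remaining E16.5 library, was at least 7.53-fold higher at E18.5, 4.46-fold at P0 and 16.2-fold in the adult. Transcripts of other cells moved with stage too: the 8 neutrophil markers summed to 0 and 11.9 CPM in TCell5 of the E16.5 replicates, 81.7 CPM at E18.5, 136 CPM at P0 and 7575 CPM in adult T/NK, where none of the 8 was at 0 and the rest of the adult library had 44955 CPM. The 8 B cell markers summed to 65.1 and 57.0 CPM at E16.5, 41.8 CPM at E18.5, 65.9 CPM at P0 and 520 CPM in the adult, where none was at 0, the rest of the library had 870 CPM, and 5 of the 6 tested (Cd79a, Vpreb1, Vpreb3, Ebf1 and Igll1) were called higher than at E16.5. The 6 plasmacytoid DC markers (DC, dendritic cell) summed to 145 to 328 CPM, and edgeR called 3 of the 4 tested (Tcf4, Irf8 and Ly6d) higher in the adult and DESeq2 none. All 8 neutrophil markers were called higher in the adult by both tools. In TCell5 of the E16.5 replicates, 0 and 2 of these 8 had over 3 UMIs, and 1 and 2 of the 8 B cell markers did. Any of them that passed the filter on low counts through the adult alone had to differ, and such calls add nothing to the counts. The 8 mast cell markers summed to 293 and 2974 CPM at E16.5 and 206 to 370 CPM later, and 5 of the 6 tested were called lower in the adult by edgeR and 1 (Tpsb2) by DESeq2. Of 9 T cell markers tested by edgeR, Cd3g was called lower in the adult by both tools. Of 8 ILC markers, Il1rl1 was called lower and Il2rb higher by both tools. Of 6 gamma delta T cell markers, edgeR called Cd163l1 lower in the adult and DESeq2 called none. Over all genes, edgeR called 114 of 8525 lower in the adult and DESeq2 20 of 6681. At E18.5 and P0, edgeR called Cd8a and Ly6d higher and Cd163l1 and 4 of 6 mast cell markers lower. Of 8 neutrophil markers it called 2 and 4 higher. Il1rl1 was called lower at E18.5 and Ebf1 higher at P0. Over all genes, 26 and 14 of 8525 were called lower. DESeq2 called only Tpsb2 (lower, E18.5) and Prtn3 (higher, P0) of these markers. The part of these markers in the differences was not tested.

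The receptor chains were then followed cell by cell within TCell5 and T/NK. Klrd1 is needed by both NKG2 chains to reach the cell surface, and its transcript accompanied theirs. Of 77 cells with a Klrc1 UMI, 75 (97.4%) also had a Klrd1 UMI, against 95 of the 364 other cells (26.1%). By library this was 2 of 2 and 21 of 22 cells at E16.5, 17 of 17 for E18.5, 12 of 12 for P0 and 23 of 24 for the adult. Of 83 cells with a Klrc2 UMI, 78 (94.0%) had Klrd1, against 92 of 358 (25.7%), with at least 90.9% in every library. The converse was weaker, since 75 of 170 Klrd1 cells (44.1%) had Klrc1 and 78 (45.9%) had Klrc2.

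**Figure D3:**
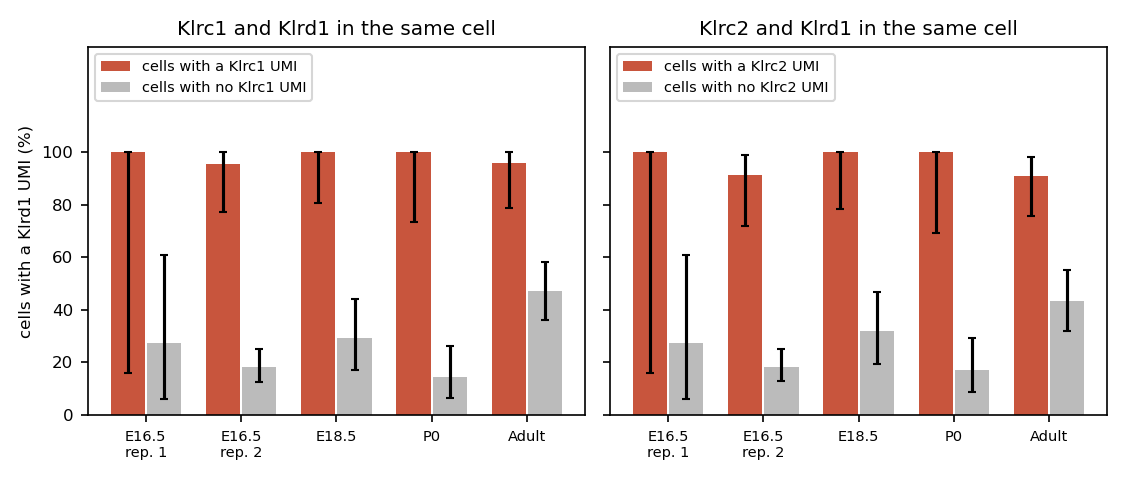
Share of cells with a Klrd1 UMI (percent) among cells of TCell5 and T/NK with a UMI of Klrc1 (left) or Klrc2 (right), in red, and among cells with none, in grey, by library. Error bars are exact 95% intervals; the red bars stand at 90.9% or above in each library and the grey bars at 14.3% to 47.1%.

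The inhibitory and activating partners were often found in the same cell. Klrc2 was detected in 49 of 77 Klrc1 cells (63.6%) and in 34 of 364 others (9.34%), although reads from sequence that the paralogs share could be lost or misplaced in these counts. The receptors of other families behaved alike: 82 of 89 Klrb1c cells (92.1%), 68 of 75 Ncr1 cells (90.7%) and 98 of 119 Klrk1 cells (82.4%) had Klrd1. Klrb1c and Ncr1 overlapped in 53 cells, which is 59.6% of the Klrb1c cells and 70.7% of the Ncr1 cells.

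The number of receptor genes detected per cell varied within these clusters. At least 4 of the 6 genes were detected in 1 of 13 and 18 of 186 cells at E16.5, 17 of 65 for E18.5, 11 of 68 for P0 and 39 of 109 for the adult, while 8, 122, 32, 46 and 35 cells had no UMI of them, which at these depths does not show that a cell lacks the receptors. At E18.5, 7 cells had all 6. Outside TCell5 and T/NK, 1 of 6140 cells at P0 and 1 of 5876 in the adult had at least 4 of the 6, and none of 547, 4566 and 3412 cells in the E16.5 replicates and at E18.5.

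Klrb1c and Ncr1, the usual defining markers of mouse NK cells, were used to divide each cluster into cells with a UMI of either and cells with neither. E16.5 replicate 1 had a single such cell and was left out, which left 17 of 186 cells in E16.5 replicate 2, 19 of 65 for E18.5, 13 of 68 for P0 and 61 of 109 for the adult. The cells with either gene were not the deeper ones, with median UMIs of 11873 against 13613, 11035 against 16944, 8405 against 9371 and 3511 against 3876.5. All values are sums over cells of 1 library, given with no test.

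The other 4 receptors were higher in these cells in all 4 libraries. At E18.5, Klrc1 was at 260 against 3.40 CPM, Klrc2 at 219 against 2.27 CPM, Klrk1 at 342 against 4.53 CPM and Klrd1 at 1230 against 235 CPM. At P0, Klrd1 was at 827 against 36.2 CPM and Klrk1 at 317 against 16.5 CPM. Klrd1 thus stood at 235 CPM at E18.5 in cells in which the other receptors were near 0, while at P0 it was low in them too.

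Of 10330 genes with a UMI in the clusters of all 4 libraries, 7.43% were higher in the Klrb1c or Ncr1 cells in all 4 and 15.0% were lower in all 4. Of the 13 effector genes of cytotoxic lymphocytes among them, out of 14 in the list, 9 were higher in all 4 (Gzma, Gzmb, Ifng, Ccl4, Ccl5, Nkg7, Ctsw, Fasl and Serpinb9). Gzma, which encodes granzyme A, was at 3535 against 231 CPM in E16.5 replicate 2, 11766 against 213 for E18.5, 10563 against 225 for P0 and 2273 against 133 for the adult. Prf1, which encodes the pore-forming protein perforin, had 0 UMIs in the 17 cells of E16.5 replicate 2 and was at 155 against 2.27 CPM for E18.5, 81.2 against 9.87 for P0 and 127 against 12.9 for the adult. These 17 cells thus had Gzma UMIs without a Prf1 UMI, where the count of 0 allows up to 14.5 CPM.

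Among 14 transcription factors, 1 to 3 had an interval above that of the other cells in the Klrb1c or Ncr1 cells of a library and 3 to 9 had one below, against 1.57% to 3.3% and 1.24% to 2.73% of all genes with a UMI there. Eomes and Tbx21, the T-box factors of NK cells, were higher in the Klrb1c or Ncr1 cells in all 4 libraries, with Eomes at 29.0 against 1.61 CPM in E16.5 replicate 2, 54.7 against 2.27 at E18.5, 22.1 against 0 at P0 (3 UMIs against 0) and 161 against 90.4 in the adult. Bcl11b, Gata3, Rora and Zbtb16, factors of T cells and ILCs, were lower in all 4 libraries, as was Ikzf2. Bcl11b, which commits precursors to the T lineage, was at 19.3 against 177 CPM, 4.56 against 168, 22.1 against 151 and 7.47 against 267. Tcf7 was lower in 3 of the 4 and was at 227 against 196 CPM in E16.5 replicate 2, and Il7r, the interleukin-7 receptor, likewise was lower in 3 of the 4 (18.2 against 352 CPM at E18.5) and at 271 against 238 CPM in E16.5 replicate 2.

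**Figure D4:**
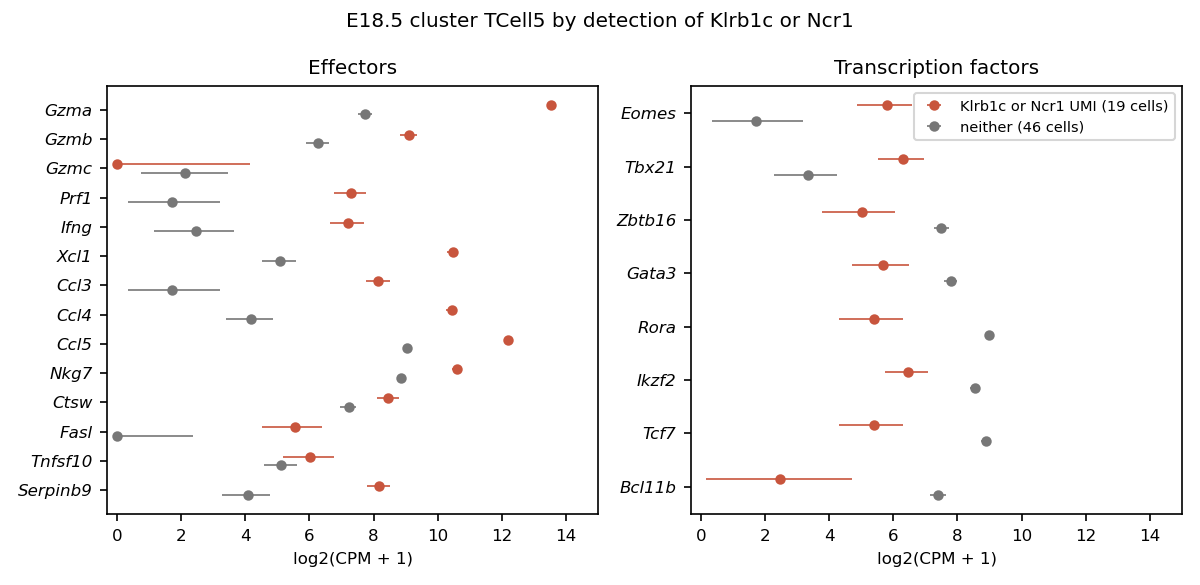
Effector genes (left) and the transcription factors named in the text (right) in the 65 TCell5 cells of E18.5, as log2(CPM + 1) of summed counts, for cells with a Klrb1c or Ncr1 UMI (red, 19 cells) and cells with neither (grey, 46 cells). Bars are exact Poisson 95% intervals; Gzma is at 11766 against 213 CPM and Bcl11b at 4.56 against 168 CPM.

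Of the 13 adaptors and kinases in the matrix, 5 were higher in the Klrb1c or Ncr1 cells in all 4 libraries and none was lower in all 4. Tyrobp, the DAP12 adaptor that couples NKG2C and Ly49 activating receptors, was at 1659 against 315 CPM in E16.5 replicate 2, 1558 against 426 for E18.5, 1218 against 331 for P0 and 1407 against 693 for the adult. Hcst, the DAP10 adaptor of NKG2D, was higher in all 4 libraries (451 against 136 CPM at E18.5), as were Fcer1g, Lck and Sh2d1b1. T cell receptor genes were not cleanly divided: Trbc1, Trbc2 and Cd3e were lower in the Klrb1c or Ncr1 cells in all 4 libraries, whereas Cd3g was higher in 3, with 1499 against 1015 CPM in E16.5 replicate 2. In the adult, 6 of 8 neutrophil markers and 4 of 8 B cell markers had an interval in the Klrb1c or Ncr1 cells above that in the other cells, against at most 1 and 0 in the other 3 libraries. In E16.5 replicate 2, 4 of 8 mast cell markers (Cpa3, Cma1, Tpsb2 and Hdc) had an interval above and 1 below, with Cma1 at 3781 against 1206 CPM and Cpa3 at 2814 against 595 CPM in the same 17 cells, while in the other 3 libraries none was above and 1 or 2 were below. Of the 8 DC markers, 6 were lower in the Klrb1c or Ncr1 cells in all 4 libraries, with 4 intervals below in E16.5 replicate 2 and 3 in each of the others. At P0 and in the adult, 1 DC marker each had an interval above. The part of such transcripts in the values of these cells was not tested.

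The antibody panel of 29 held none against the 6 receptors. CD48, a ligand of the NK receptor 2B4 (Cd244), was measured on the same cells. Its median tag count was 17 in Klrb1c or Ncr1 cells against 123 in the others at E18.5, 19 against 89 at P0, 62 against 117.5 in the adult, and 7 against 6 in E16.5 replicate 2, where the median over all cells was 7. CD90.2, a T cell surface protein with counts in E16.5 replicate 2, had medians of 30 and 42 there and 81 in the other T cell clusters.

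Klrd1 and Klrk1 were also found outside TCell5 and T/NK, in clusters coded as progenitors, lymphoid progenitors, B cells, monocytes and DCs. At E16.5, cluster HSPC1 had 83 Klrd1 UMIs in 33 cells of replicate 1 (99.5 CPM) and 197 in 165 cells of replicate 2 (61.5 CPM), and up to 27 in a cell. Without cells that share a barcode, 13 cells of replicate 1 were left in it, with 15 Klrd1 UMIs (82.9 CPM) and 7 Klrk1 UMIs (38.7 CPM), while the Klrd1 and Klrk1 levels of the other clusters named here stayed within their counting intervals. The leading genes of this cluster included Cd209a, Flt3 and Shisa8 in both replicates, MHC class II genes in replicate 1, and Hoxa9, a gene of the progenitor marker list, in replicate 2. At E18.5, cluster Mono1i held 93 Klrd1 UMIs (37.4 CPM), and at P0 cluster LymP held 104 (17.1 CPM) spread over 70 of 388 cells, at most 6 in a cell. In the adult, Mono6 was at 51.3 CPM (48 UMIs) and Mono5 at 7.03 CPM (50 UMIs). Klrd1 was also found at E18.5 in HSPC2 (55 UMIs in 33 cells, 5.49 CPM), at P0 in DC3 (24 UMIs, 20.8 CPM) and Bcell1 (36 UMIs in 29 cells, 6.67 CPM), and in the adult in HSPC5 (35 UMIs in 29 cells, 6.42 CPM). These levels stand against 0.280 CPM in the other T cell clusters of E16.5 replicate 2, where the median cell was deeper (22848 UMIs).

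The Klrd1 cells of these clusters were set beside the other cells of the same cluster for the lists of 8 DC markers and 6 plasmacytoid DC markers, with no test. Of the DC markers, 6 and 5 had an interval above that of the other cells in HSPC1 of the E16.5 replicates, 6 in Mono1i at E18.5, 1 in LymP at P0, and 7 and 4 in adult Mono5 and Mono6, and none had one below. Over all genes with a UMI there, 2.43%, 2.36%, 6.40%, 1.34%, 5.07% and 0.539% had an interval above in the same order. Of the plasmacytoid DC markers, 4 and 0, then 2, 4, 6 and 1 were above in the same order, and Ly6d was below in HSPC1 of replicate 2. Single genes, chosen after their values were seen, are given next. In HSPC1, Cd209a, a lectin of monocyte-derived and conventional DCs, was detected in 7 of 13 Klrd1 cells of replicate 1 against 5 of 20 others, and in 10 of 57 against 6 of 108 in replicate 2. In Mono1i at E18.5 it was in 10 of 19 Klrd1 cells (52.6%) against 15 of 172 others (8.72%), at median depths of 11605 and 11423 UMIs. In adult Mono5, 28 of 35 Klrd1 cells (80.0%) had Siglech, a marker of plasmacytoid DCs, against 26 of 320 (8.13%), and Siglech was at 607 against 12.3 CPM, although the Klrd1 cells were shallower (medians of 4610 and 22934 UMIs). In LymP at P0, Klrd1 cells and others had Trbc2 alike (75.7% and 73.3%).

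Outside TCell5 and T/NK, Klrk1 was highest in clusters led by MHC class II genes, the antigen-presenting genes that are abundant in DCs. The highest level was in P0 cluster DC3, with 112 UMIs in 56 of 94 cells (97.3 CPM), above the 71.3 CPM of TCell5 in the same library, though the intervals (80.1 to 117 and 53.4 to 93.3 CPM) overlap. Adult Mono6 followed at 69.5 CPM (65 UMIs), then E18.5 Mono1ii at 29.9 CPM (53 UMIs) and DC1 of E16.5 replicate 2 at 27.0 CPM (22 UMIs). All 4 clusters had MHC class II genes among their leading genes, and Clec9a, a receptor of cross-presenting DCs, was among them in DC3, Mono1ii and DC1. In Mono1ii, 26 of 30 Klrk1 cells (86.7%) had Clec9a against 21 of 99 others (21.2%). In DC1 and DC3, where Clec9a was common in all cells, it was in 11 of 13 against 38 of 43 and in 40 of 56 against 21 of 38, and in Mono6 in 14 of 38 against 38 of 138. Klrk1 was also found where Clec9a was rare: Mono1i at E18.5 had 51 UMIs in 29 cells (20.5 CPM), none of which had Clec9a, and adult Mono4 had 45 in 44 cells (7.85 CPM), of which 2 had it. Adult Mono5 was at 5.90 CPM (42 UMIs), and HSPC1 at 16.8 and 7.49 CPM in the E16.5 replicates (14 and 24 UMIs).

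Klrd1 and Klrk1 were found together to different extents in these clusters. Klrd1 was in 1 of 30 Klrk1 cells of Mono1ii and in 6 of 56 Klrk1 cells of DC3, against 6 of 99 and 6 of 38 of the other cells. In HSPC1 it was in 5 of 6 Klrk1 cells and 8 of 27 others in E16.5 replicate 1, where most cells share a barcode, and in 7 of 16 and 50 of 149 (43.8% and 33.6%) in replicate 2. In adult Mono6 it was in 10 of 38 Klrk1 cells and 15 of 138 others, at median depths of 6972.5 and 3730.5 UMIs. Klrb1c had few UMIs outside TCell5 and T/NK, the most in adult Pre/Pro-B2 (14 UMIs in 13 of 246 cells, 24.7 CPM). At E16.5, cluster UD1 had 2 Klrb1c UMIs in replicate 1 and 5 in replicate 2 (6.47 CPM). The interval of the latter (2.10 to 15.1 CPM) overlaps that of TCell5 in the same library (5.73 to 13.3 CPM). In replicate 2, 14 of 76 UD1 cells (18.4%) had a UMI of any of the 6 genes, with Klrk1 at 14.2 CPM (11 UMIs).

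Across 73 clusters of at least 50 cells, 13914 genes were ranked by the Pearson correlation of log2(CPM + 1) with each receptor. These correlations are given as a description, since clusters of a library share its depth and most are near 0 for these genes. Ncr1 and Klrc2 were closest to each other (r = 0.983), with Xcl1, a chemokine of NK cells that attracts DCs, next for both (0.951 and 0.967). Klrc1 was closest to Klrc2 (0.931). Klrd1 was closest to Klri2 (0.793), which encodes a lectin-like receptor partner, and to Klrk1 (0.791), while Klrk1 was closest to AC163354.1 (0.817) and Wdr86 (0.802). Klrb1c was closest to Gimap3 (0.846), a GTPase of lymphocytes, and Il2rb (0.823), the interleukin-2 and interleukin-15 receptor chain on which NK cells depend.

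The rest of the receptor repertoire was read from a list of 28 further NK receptor genes, 20 of which were in the matrix. Within TCell5 and T/NK, 16 were tested, of which 2 were higher at E18.5 and at P0 (Klra5 and Klre1) and 10 in the adult than at E16.5 by edgeR, beside 0.481%, 0.633% and 3.07% of all genes. Of the 10, Klra1, Klra4, Klra8 and Klra9 had at most 1 UMI over all perinatal libraries and passed the filter on low counts through the adult alone, so that they had to differ and their calls add nothing to their counts. The other 6 were Klra7, Klrb1a, Klrb1f, Klre1, Klri2 and Cd244, of which DESeq2 called Klra7 only, and it called none of the list at E18.5 or P0. Klra7 had few perinatal UMIs as well (0 at P0, against 95 in the adult), so its calls likewise add nothing to its counts. Klre1, a receptor chain that pairs with Klri1 and Klri2, had 0 and 16 UMIs at E16.5 and was at 98 CPM (108 UMIs) at E18.5, 68.6 CPM (51) at P0 and 246 CPM (123) in the adult.

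The Ly49 receptors, lectin-like receptors for MHC class I, differed between the perinatal libraries and the adult one. Klra5, which encodes Ly49E, had 7 and 31 UMIs at E16.5 (25.3 and 11.5 CPM), 200 at E18.5 (182 CPM), 61 at P0 (82.1 CPM) and 0 in the adult, which allows up to 6.00 CPM, so that it was at least 30.3-fold lower in the adult than at E18.5 and at least 13.7-fold lower than at P0. Klra1, Klra8 and Klra9 had 0 UMIs in all perinatal libraries and 46, 63 and 37 in the adult, at least 90.8-, 124- and 73.0-fold higher than the limit over both E16.5 libraries together, at least 33.8-, 46.3- and 27.2-fold higher than that of E18.5 and at least 22.8-, 31.2- and 18.3-fold higher than that of P0. Klra4 had 1 UMI and Klra7 had 7 over all perinatal libraries, against 97 (194 CPM) and 95 (190 CPM) in the adult. The rise of Klra5 from E16.5 passed edgeR's test at E18.5 (3.67, SE 0.53, adjusted p = 5.9e-09) and P0 (2.47, SE 0.56, adjusted p = 0.0024), while the adult count of 0 did not pass against E16.5 (adjusted p = 0.067). Ly49 genes are near-identical in stretches, and reads shared among them could be lost or misplaced in these counts.

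**Figure D5:**
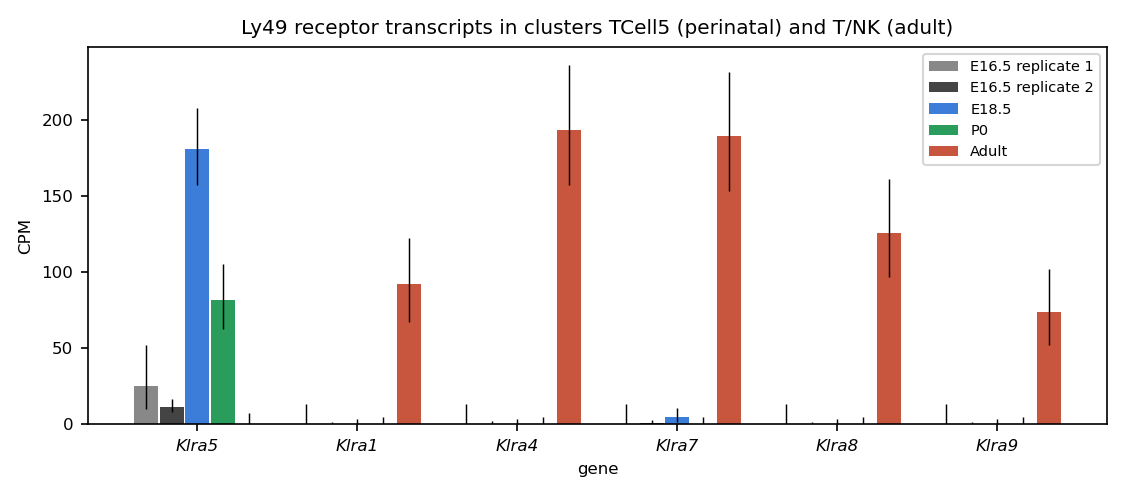
Ly49 receptor genes (x axis) in CPM (linear axis from 0) in cluster TCell5 of the perinatal libraries and T/NK of the adult library. Error bars are exact Poisson 95% intervals; Klra5 has 7, 31, 200 and 61 UMIs in the perinatal libraries and 0 in the adult, while Klra1, Klra4, Klra7, Klra8 and Klra9 have 37 to 97 UMIs in the adult and at most 5 in any perinatal library.

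Of 14 effector genes tested within these clusters, edgeR called 6 higher at E18.5 than at E16.5, 4 at P0 and 5 in adult T/NK, beside 0.481%, 0.633% and 3.07% of all genes, and DESeq2 called none, none and 2 (Prf1 and Ccl5). The values that follow are edgeR's. Gzma was higher at all stages (3.27, 2.96 and 2.50), as were Prf1 (3.31, 2.75 and 4.70) and Serpinb9, which encodes an inhibitor of granzyme B. These are sums over clusters in which the share of Klrb1c or Ncr1 cells differed. Within those cells, as given above, Gzma was lower in the adult than in E16.5 replicate 2. Gzmb was higher at E18.5 (3.19) and P0 (3.43), with 170 and 207 CPM, and had a log2 fold change of 0.32 in the adult (10 UMIs, adjusted p = 0.90). It was also among the leading genes of the mast cell cluster Mast3 at E18.5 and P0. The part of mast cell transcripts in its level was not tested. Ccl4 rose by 5.68 at E18.5 and by 3.81 in the adult. Of 13 adaptors and kinases, 4 were higher in the adult (Tyrobp at 1.83, Hcst at 2.35, Sh2d1a and Syk, of which DESeq2 called Tyrobp and Hcst) and none at E18.5 or P0, and of 13 transcription factors tested, Eomes (4.49) and Tbx21 (2.49) were called higher in the adult, and neither was called by DESeq2. At E18.5 they were at 0.96 and 1.20 and were not called, although over all T and NK codes edgeR called both there too.

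Ligands of the receptors were present in the same clusters. H2-T23, which encodes Qa-1, the ligand of CD94/NKG2, was at 25.3 to 132 CPM and B2m, its light chain, at 736 to 1008 CPM. Ulbp1 was at 4.04 to 15.6 CPM, and Raet1d, Raet1e and H60b had at most 6 UMIs in any library. Clec2d, which encodes a ligand of Klrb1 family receptors, was the only 1 of the 4 ligand genes tested that passed, and was higher in the adult than at E16.5 (2.92, SE 0.52, adjusted p = 2.3e-06).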

How the data were processed

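Single-cell mRNA and TotalSeq-A antibody libraries were made with 10x 3′ v3.1 chemistry. The authors counted reads with Cell Ranger 3.1.0 on mm10, filtered cells and genes, clustered with Seurat 3.1.5 in R 4.0, and deposited raw UMI counts per gene and cell, raw antibody counts and a cell annotation, of which 13 columns were not used. Cells and cluster codes were used as deposited, with no doublet calling.

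Here UMIs were summed per cluster code and library and scaled to CPM. Exact intervals at 95% were Poisson for these levels and Clopper-Pearson for percentages of cells. A count of 0 was read as allowing 3 counts. Summed counts were tested with edgeR 4.0.16 (quasi-likelihood, TMM, low counts filtered), with DESeq2 1.42.0 as an alternative, in R 4.3.3; the edgeR script was tested on simulated counts. Gene sequences and coordinates came from the GRCm38 reference.

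Alternatives were RLE normalization, no filter, DESeq2, means of per-cell CPM, no thinning or thinning to 2000 UMIs, leaving out the deepest 10% of cells, cells under 1000 UMIs or either E16.5 library, and at least 2 UMIs for detection. Leaving out cells that share a barcode, and the contrast within TCell5 and T/NK alone, were chosen after seeing the data. The 6 genes and all lists were chosen with earlier results of these data known. Any gene of the lists for receptors, adaptors, ligands, effectors and transcription factors could be named, with its whole list counted, and for each receptor the 5 genes with the most similar pattern. Genes outside these lists, such as Cd209a, Siglech, Clec9a and Il7r, were named after their values were seen, and a gene of the transcription factor list is not reported here. Per the study's methods each library pooled several mice, for the perinatal stages from more than 1 litter, and whether the E16.5 libraries shared litters is not given in the sources used here, so p-values measure only the spread between these libraries.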

Additional observations from a re-analysis of the deposited data

Results flagged for a closer look

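The stromal libraries (CD45-Ter119- cells) were not used in the comparisons above, and some held receptor transcripts above the limit set by a count of 0. Klrk1 had 16 UMIs at E16.5 (0.137 CPM), 21 at E18.5 (0.187 CPM) and 42 at P0 (0.216 CPM, 19 of them in code C8). Klrb1c had 8 UMIs at P0 (0.0410 CPM) and Klrd1 had 4 (0.0205 CPM). All of these levels are below 0.3 CPM, against 48.4 CPM or more for the same genes in TCell5 at P0. Klrc1, Klrc2 and Ncr1 had 0 UMIs in the deposited cells of all 4 stromal libraries. The study's methods state that contaminating blood cells were taken out of its stromal objects. Fewer stromal cells were deposited than the study reports. These counts of 0 therefore describe the cells that were kept, and cannot show whether NK cells were sorted with the stroma.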

How the results depend on the processing

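Over all HP cells, the number of genes called by edgeR (1 for E18.5, 47 for P0 and 378 for the adult) became 35 and 78 at E18.5 and P0 with RLE normalization, 485, 713 and 1515 with no filter on low counts, 361, 561 and 1164 with DESeq2, and 106, 248 and 748 without cells that share a barcode. Over all T and NK codes (149, 97 and 272), it became 16, 14 and 63 with DESeq2, 87, 57 and 153 without cells that share a barcode, 259 at P0 with no filter, and 67 at E18.5 in TCell5 alone. The summed level of the 6 genes in TCell5 and T/NK, as a mean over cells in place of a sum, was 324 and 495 CPM in the E16.5 replicates, 1010.5 for E18.5, 575 for P0 and 1653 for the adult, and without cells that share a barcode 166 CPM in E16.5 replicate 1 and 778 at E18.5. The share of their UMIs in T and NK codes became 38.0% in E16.5 replicate 1 without such cells and 65.1% in the adult without the 10% of cells with the most UMIs. Without thinning, the share of cells with any of the 6 was 34.4% in E16.5 replicate 2 and 67.9% in the adult. The share of Klrc1 cells with Klrd1 stayed between 97.3% and 98.2% without either E16.5 replicate, and that of Klrc2 cells between 93.8% and 95%. The cause of these changes was not tested. No result changed direction past its threshold. No paired analysis was possible because the later stages have 1 library each and share no replicate pairs with E16.5. With 1 residual degree of freedom and as few as 13 cells in a cluster, levels resting on under 10 UMIs are known to within several-fold only. Levels with more UMIs can also rest on few cells, which counting intervals do not cover. Taken as means over cells, 19 levels of single genes in TCell5 and T/NK moved beyond their counting intervals and 11 did not.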
